A study of Homo sapiens with 6 samples.

Results

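Polyamine synthesis and catabolism was followed through 10 genes, taken by gene symbol from the deposited gene and transcript tables: ODC1, AMD1, SRM and SMS (synthesis), OAZ1, OAZ2 and AZIN1 (control of the first enzyme) and SAT1, SMOX and PAOX (back-conversion and oxidation). They are 10 of the 46427 genes of the gene table and are listed with 50 of its 170322 transcripts. The cells were MDA-MB-231/RR, radioresistant cells derived from MDA-MB-231, an established human line of triple-negative breast cancer, and the readout was RNA sequencing. There were 3 control libraries, whose labels name no agent, and 3 libraries of cells co-treated with ortho-topolin riboside (oTR), a cytokinin nucleoside, and melatonin, the pineal hormone. Both groups were grown in the same serum-containing medium and harvested with trypsin. The question was how the combination changes the transcriptome, and with no library of a single compound analysed here the share of each compound in a difference cannot be told apart. Neither doses nor exposure times were found in the labels. The labels also leave unsaid whether replicates were separate cultures, and p-values then reflect only the spread among these libraries, which may be technical.

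Polyamines are small positively charged amines that bind nucleic acids and are needed for translation and proliferation. Ornithine decarboxylase (ODC1) makes putrescine from ornithine, and AMD1 decarboxylates S-adenosylmethionine (AdoMet) to give the aminopropyl donor. SRM and SMS add that group to putrescine and to spermidine, giving spermidine and spermine. The antizymes OAZ1 and OAZ2 bind ODC1 and direct it to the proteasome, and their full-length translation needs a ribosomal frameshift that polyamines promote, while the antizyme inhibitor AZIN1 binds antizyme in place of ODC1. SAT1 acetylates spermidine and spermine, PAOX oxidizes the acetylated forms, and SMOX oxidizes spermine directly. ODC1, SRM and other genes of the pathway are known targets of MYC, which binds the E-box CACGTG.

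Sequences of 3 E-boxes are shown because the synthesis genes and MYC are set side by side below, and the SAT1 exon because its inclusion is known to mark the transcript for decay. Promoter windows reach from 250 bases before to 50 bases after a RefSeq transcription start (GRCh38.p14), and at least 1 window was found for 7 of the 10 genes, not for AZIN1, SMOX or PAOX. The palindrome CACGTG, searched on both strands as an exact match and shown in capitals, lay at position -199 from the SRM start, within chr1:11060165-11060264 on the minus strand:
SRM: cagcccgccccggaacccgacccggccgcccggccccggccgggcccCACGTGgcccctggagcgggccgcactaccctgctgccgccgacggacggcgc
It occurred 2 times in the window of an alternative ODC1 start, within chr2:10448024-10448053 and chr2:10447990-10448019 on the minus strand:
ODC1, farther from exon 2: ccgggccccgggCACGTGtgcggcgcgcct
ODC1, nearer to exon 2: ggcctgcggagaCACGTGgtcgccgagcgg
Both ODC1 matches lie in the intron between exon 1 and exon 2 of a longer GENCODE 29 transcript. The window of the other RefSeq start of ODC1 in the table, which lies upstream, held none. That upstream start is the one of NM_002539, with a mean of 97.3% of ODC1 counts in the control libraries. NM_001287189 and NM_001287190, which begin at the start with the matches, had 1.23% and 0% there. CACGTG was found in 7.26% of 35116 windows of the table. Windows of AMD1, SMS, OAZ1, OAZ2 and SAT1 held no CACGTG, and none of the 7 genes had the cAMP response element TGACGTCA (1.85% of windows). The antioxidant response element core TGACNNNGC (13.3% of windows) matched once, in ODC1. The match positions are a description of these windows and were tested for no function.

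The SAT1 exon is a 110-base exon at chrX:23784294-23784403 on GRCh38, the 4th of 7 exons of transcript NR_027783. It lies inside the 1444-base intron 3 of the 6-exon coding transcript NM_002970. It is shown in capitals, spliced between 20 bases of each neighbouring exon in lower case (GENCODE 29, plus strand):
SAT1: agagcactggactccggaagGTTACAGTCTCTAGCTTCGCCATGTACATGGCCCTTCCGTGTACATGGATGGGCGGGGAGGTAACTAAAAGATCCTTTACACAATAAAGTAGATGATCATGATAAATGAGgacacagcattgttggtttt

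The libraries held between 50569611 and 72309015 estimated counts, in overlapping ranges for the 2 groups. Of 6 markers of the line (VIM, CD44, EGFR, KRT8, KRT18 and AXL), all were detected, with a summed level of 4009 to 4184 TPM (deposited values scaled by transcript length and library) in the control and 4469 to 4758 TPM in the co-treated libraries, and the part of this difference in the results was not tested. Of 5 genes that mark epithelial or receptor-positive tumours, 4 lay under 1 TPM, PGR was listed at 0, and ERBB2 reached 28.3 to 37.4 TPM. Of 7 immune, endothelial and fibroblast markers, 6 lay under 1 TPM and PTPRC and DCN were listed at 0 in all 6 libraries, while COL1A1 lay between 6.79 and 9.24 TPM. The summed level of these 7 was 7.60 to 9.52 TPM in the control and 7.30 to 7.61 TPM in the co-treated libraries.

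On the TPM scale, which divides by length, the antizyme gene OAZ1 was the most abundant of the 10, with a mean of 823 TPM over the 6 libraries, followed by ODC1 at 574 TPM and SMS at 343 TPM. The ranges of these 3 over the libraries did not overlap. AZIN1 (173 TPM), SRM (163 TPM) and OAZ2 (163 TPM) followed, and their ranges over the 6 libraries overlapped. SAT1 (116 TPM) and AMD1 (111 TPM) overlapped as well. The order within both of these sets differed between the groups: SRM was above AZIN1, and AMD1 above SAT1, in each of the 3 control libraries, and both orders were turned in each of the 3 co-treated libraries. SMOX stood at 9.53 TPM. PAOX, the acetylpolyamine oxidase, had 6, 13 and 8 estimated counts in the control and 11, 18 and 7 in the co-treated libraries, a mean of 0.208 TPM. Ranked among all 46427 genes, OAZ1 took place 146 and ODC1 place 204, while SMOX took place 8969.

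Co-treated cells had less mRNA of both aminopropyltransferases, SRM and SMS, and more of AZIN1 and of SMOX. RNA assigned to the acetyltransferase gene SAT1 was also higher, by estimate in a transcript that keeps an intron. These calls were not equally firm: SRM, SMS and SAT1 kept theirs under all 17 other settings, AZIN1 under 14 and SMOX under 9. ODC1, AMD1, OAZ1, OAZ2 and PAOX did not pass the test. Thus 3 of the 10 genes were called higher and 2 lower at an adjusted p under 0.05 (edgeR quasi-likelihood test, Benjamini-Hochberg over 16557 genes), where 16.6% of all tested genes were called higher and 17.1% lower (33.7% in either direction). All 10 passed the filter on low counts. The libraries of the 2 groups did not overlap for 3 genes that were higher (SAT1, AZIN1, SMOX) and 3 that were lower (SRM, SMS, ODC1), a separation seen for 23.3% and 24.1% of all tested genes (47.4% in either direction). The median log2 fold change of the 10 was 0.03, and that of all tested genes 0.00. In bulk RNA, a lower level in each cell and fewer cells that express a gene cannot be told apart.

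**Figure D1:**
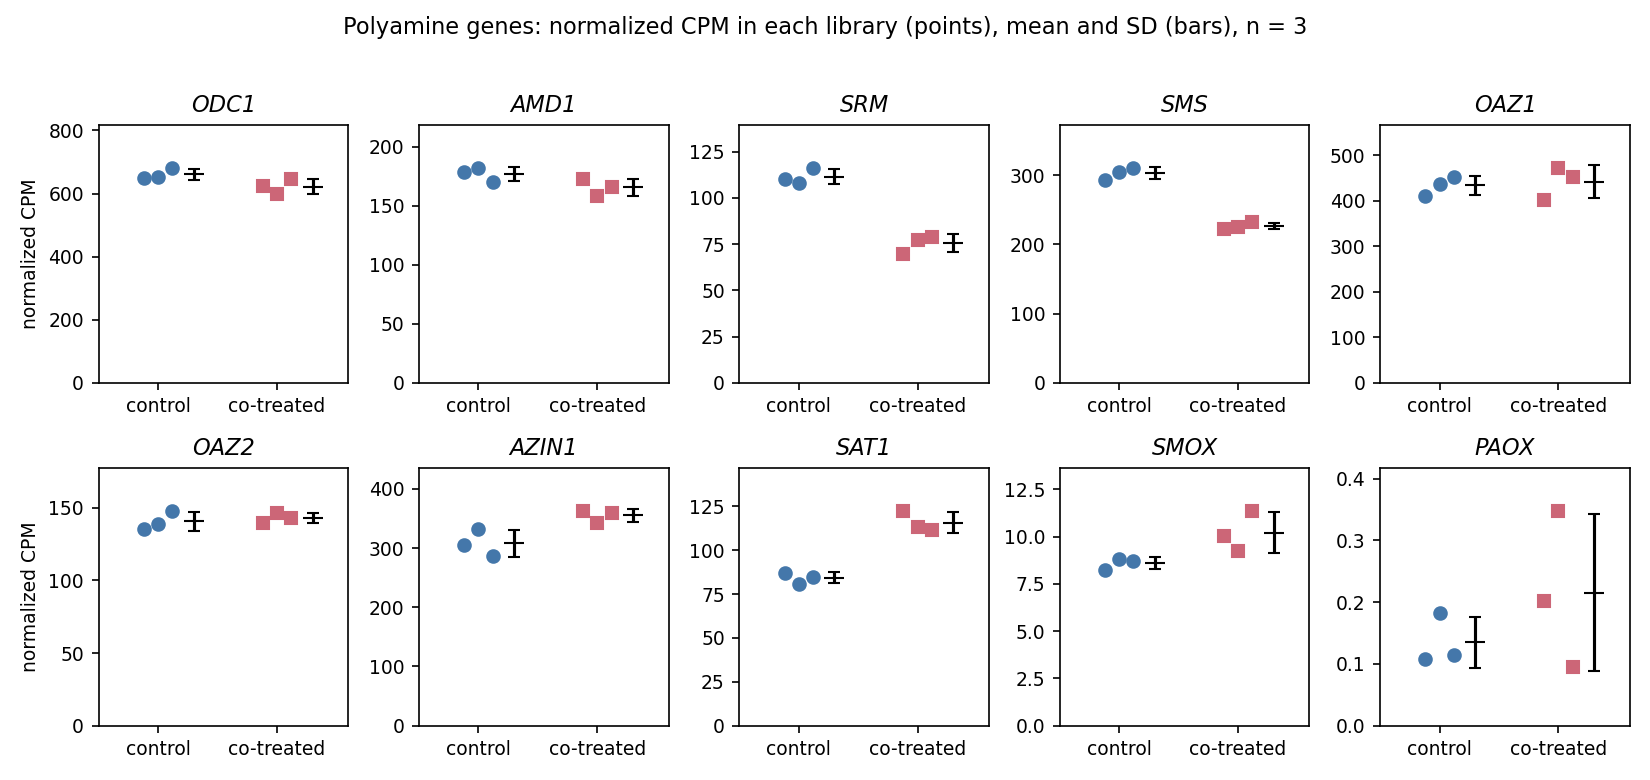
Normalized CPM (estimated counts scaled to the normalized library size; vertical axes from 0) of the 10 polyamine genes in each of 3 control (circles) and 3 co-treated (squares) libraries, with mean and SD beside them. The co-treated points of SRM and SMS lie below all control points, those of SAT1, AZIN1 and SMOX above.

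The first 2 enzymes differed little. ODC1 stood at 648, 653 and 682 normalized CPM in the control libraries and at 624, 598 and 645 CPM in the co-treated libraries. The co-treated values all lay below the control values, by a narrow margin. The log2 fold change was -0.09 ± 0.04 (SE, n = 3 per group), with a 95% interval from -0.18 to 0.01 and an edgeR adjusted p of 0.155. On the log2(TPM + 1) scale the ODC1 difference had the other sign, at 0.05, while the median of all tested genes there was 0.09. AMD1, whose enzyme supplies the aminopropyl group, had 178, 182 and 171 CPM in the control and 173, 159 and 166 CPM in the co-treated libraries. Its groups overlapped. The AMD1 log2 fold change was -0.09 ± 0.05 (95% interval -0.20 to 0.01), with an adjusted p of 0.157 in edgeR. It too had the other sign in log2(TPM + 1), at 0.04, again below the median of all tested genes on that scale. For both genes, therefore, a fall beyond about 0.2 on the log2 scale lies outside the interval.

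SRM, the spermidine synthase, was at 110.1, 108 and 116 CPM in the control libraries and at 69.9, 77.2 and 79.1 CPM in the co-treated libraries. The groups were far apart, with every co-treated library under 80 CPM and every control above 100 CPM. SRM fell by 0.56 ± 0.05 on the log2 scale (SE; 95% interval -0.69 to -0.44; edgeR adjusted p = 5.41e-05), from 112 ± 4.27 to 75.4 ± 4.84 CPM (SD, n = 3), which is a fall of 32.4%. Of all called genes, 15.9% had a change of this size or more, the median size being 0.31 on the log2 scale. The gene (gene ID 6723) spans chr1:11054589-11060053 in the deposited transcript table.

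SMS, the spermine synthase (gene ID 6611, chrX:21940573-21994837), was at 293, 304 and 311 CPM in the control libraries and at 223, 225 and 232 CPM in the co-treated libraries. Again no values overlapped. SMS fell by 0.42 ± 0.04 on the log2 scale (95% interval -0.51 to -0.32; edgeR adjusted p = 7.55e-05), from 303 ± 8.72 to 227 ± 4.76 CPM. Among called genes, 29.1% changed by as much or more. SRM and SMS were called lower under all 17 other settings tried, with log2 fold changes from -0.60 to -0.43 for SRM and from -0.44 to -0.29 for SMS.

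Within each library, the TPM ratio of SRM to SMS was 0.507, 0.482 and 0.506 in the control and 0.424, 0.464 and 0.461 in the co-treated cells. The co-treated ratios were all lower. Such a ratio is free of library scaling. The difference of the log2 ratios was -0.15, with an exact two-sided permutation p of 0.1, the smallest that 3 against 3 libraries can give (0.25 after Benjamini-Hochberg adjustment over 5 ratios). AMD1 over SRM was 0.597, 0.620 and 0.540 in the control and 0.912, 0.757 and 0.773 in the co-treated libraries, again without overlap. That log2 difference was 0.47 (exact permutation p = 0.1, adjusted 0.25).

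**Figure D2:**
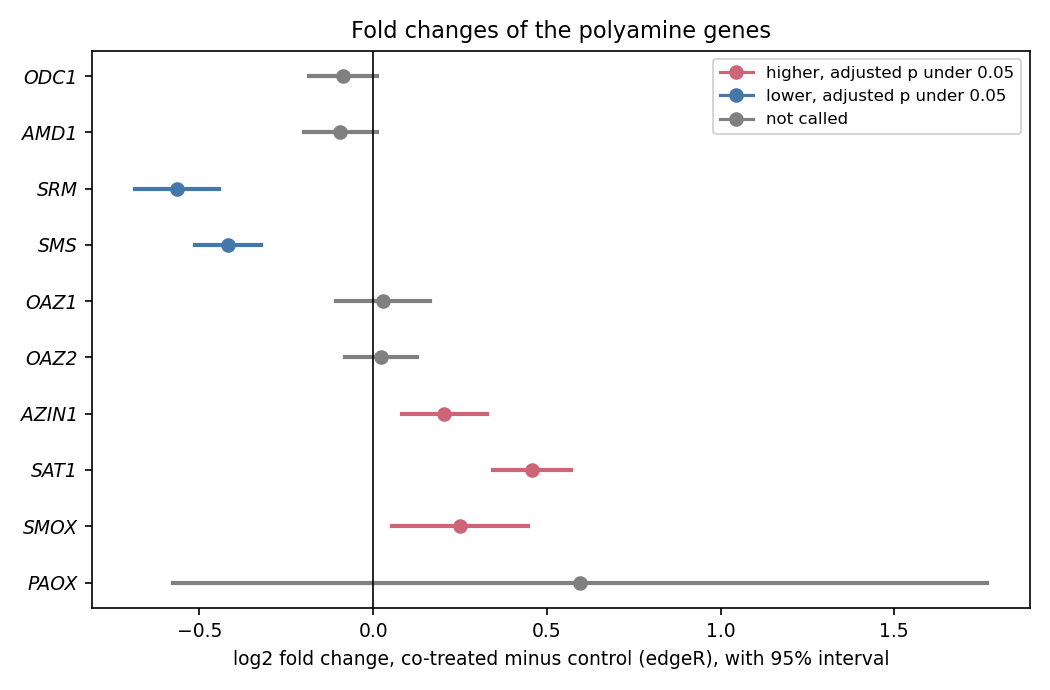
Log2 fold change of the 10 polyamine genes, co-treated minus control (points), with the 95% interval of the edgeR fit (lines); colour gives the call. SRM and SMS lie wholly below 0, SAT1, AZIN1 and SMOX above it, and PAOX has the widest interval.

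The antizymes did not pass the test. OAZ1 was at 411, 437 and 452 CPM in the control and at 402, 473 and 453 CPM in the co-treated libraries, with a log2 fold change of 0.03 ± 0.06 (95% interval -0.11 to 0.16; edgeR adjusted p = 0.757). OAZ2 was at 135, 139 and 148 CPM in the control and at 139.6, 146 and 143 CPM in the co-treated libraries, with a log2 fold change of 0.02 ± 0.05 (95% interval -0.08 to 0.13; adjusted p = 0.748). The groups overlapped for both genes. On the TPM scale OAZ2 was called higher (limma on log2(TPM + 1), 0.15, adjusted p = 0.017), a scale on which the median of all genes also lay higher, at 0.09. OAZ1 was called higher only once a length trend was removed (edgeR, 0.14, adjusted p = 0.0481).

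AZIN1, the antizyme inhibitor, was at 306, 332 and 287 CPM in the control and at 363, 343 and 359 CPM in the co-treated libraries. The groups did not overlap, though the highest control and the lowest co-treated library lay close together. AZIN1 rose by 0.20 ± 0.06 on the log2 scale (95% interval 0.08 to 0.33; edgeR adjusted p = 0.0158), a change that 80.9% of called genes matched or passed. The call was lost without some single libraries. The edgeR adjusted p was 0.0582 without control 1, 0.0638 without control 3 and 0.053 without co-treated 3. The log2 fold change was then 0.20, 0.15 and 0.20, and a fit on fewer libraries also has less power. On the log2(TPM + 1) scale the AZIN1 difference was larger, at 0.35, where the median of all genes also lay higher, at 0.09.

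Ratios across the control step did not separate the groups. ODC1 over the sum of both antizymes, in TPM, was 0.606 ± 0.0160 in the control and 0.563 ± 0.0520 in the co-treated libraries (SD, n = 3; log2 difference -0.11, exact permutation p = 0.3, adjusted 0.375). AZIN1 over the same sum was 0.163 ± 0.0161 and 0.187 ± 0.0186 (log2 difference 0.20, exact permutation p = 0.3, adjusted 0.375). Both ratios overlapped between the groups.

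SAT1, the acetyltransferase that opens the catabolic route (gene ID 6303, chrX:23783158-23786223), was at 87.2, 80.9 and 84.9 CPM in the control and at 123, 113 and 111 CPM in the co-treated libraries. Every co-treated library was above every control. SAT1 rose by 0.46 ± 0.05 on the log2 scale (95% interval 0.35 to 0.57; edgeR adjusted p = 0.000113), from 84.3 ± 3.17 to 116 ± 5.98 CPM, a rise of 37.3%. SAT1 was called higher under all 17 other settings, with log2 fold changes from 0.41 to 0.52. These values are of the whole gene. By estimate, the intron-holding transcript XM_024452421, described below, went from a mean of 58.7 to 94.0 CPM. The coding NM_002970 stood at 13.1 and 9.94 CPM, and NR_027783 at 12.5 and 12.9 CPM, so a rise of coding SAT1 mRNA is not shown. Among called genes, 23.9% changed by as much or more.

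SMOX, the spermine oxidase, was at 8.25, 8.84 and 8.71 CPM in the control and at 10.0, 9.23 and 11.4 CPM in the co-treated libraries. The groups did not overlap, and the co-treated libraries were the more scattered. SMOX rose by 0.25 ± 0.09 on the log2 scale (95% interval 0.05 to 0.45), at an edgeR adjusted p of 0.0499 that barely passed. It was called under 9 of 17 other settings. The call was lost with DESeq2 (adjusted p = 0.0527), with voom (0.0541), without the filter on low counts (0.0831), and in edgeR without control 1 (0.147), control 2 (0.083), control 3 (0.0999), co-treated 1 (0.0763) or co-treated 3 (0.201, log2 fold change 0.16). The TPM ratio of SAT1 to SMOX was 11.8 ± 1.16 in the control and 12.5 ± 1.36 in the co-treated libraries, and the groups overlapped (exact permutation p = 0.6, adjusted 0.6). PAOX, with 6 to 18 estimated counts per library, had a log2 fold change of 0.60 ± 0.53 (95% interval -0.58 to 1.77, edgeR adjusted p = 0.425), so that neither a doubling nor a fall by 0.5 on the log2 scale could be told from no change at this depth. Single libraries moved the PAOX value, to 0.08 without co-treated 2 and to 1.00 without co-treated 3.

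**Figure D3:**
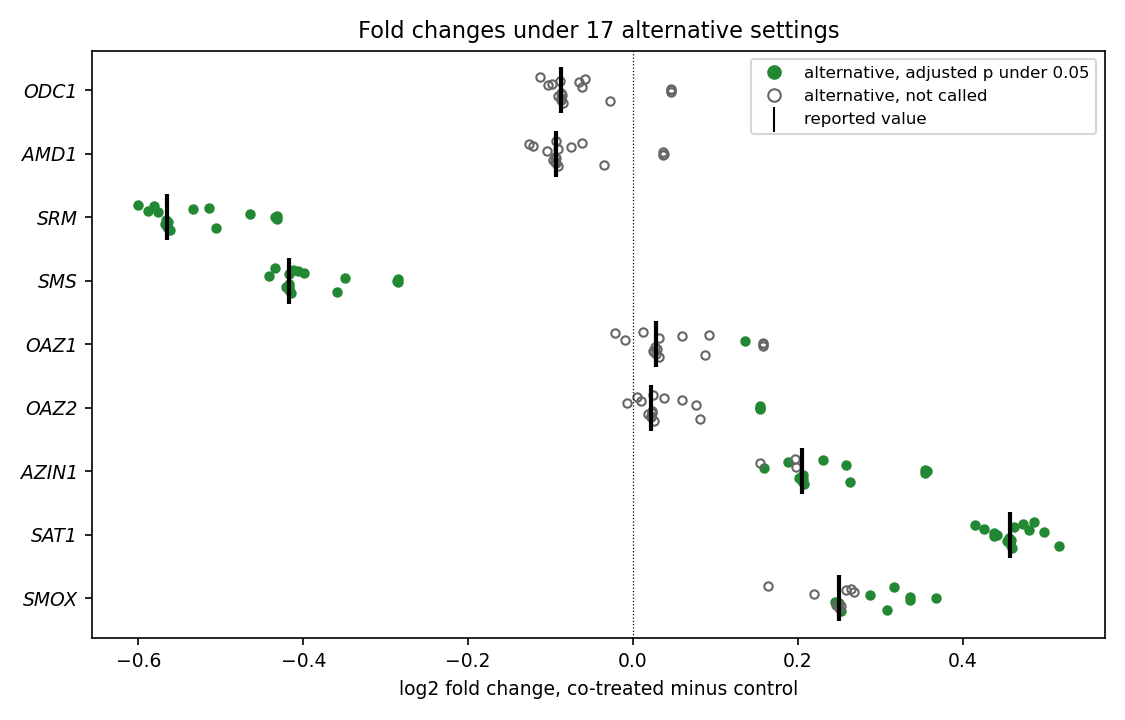
Log2 fold change (co-treated minus control) of 9 of the genes under 17 alternative settings; filled points are called at an adjusted p under 0.05, open points are not, and the bar is the value reported. All points of SRM, SMS and SAT1 are filled, while AZIN1 and SMOX have both kinds.

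Transcripts of SAT1 were compared because the gene is known for regulated splicing. The tables list 3: the coding NM_002970 of 1077 bases, NR_027783 of 1187 bases with the additional exon shown above, and the predicted XM_024452421 of 2485 bases. The deposited length of XM_024452421 equals that of its span spliced as NM_002970 with the whole of intron 3 kept, so that it holds the additional exon as part of unspliced sequence. XM_024452421 carried 70.2, 74.4 and 64.4% of the estimated SAT1 counts in the control libraries and 85.6, 77.8 and 77.6% in the co-treated libraries. NM_002970 carried 14.9, 11.7 and 19.9% in the control and 5.79, 10.5 and 9.47% in the co-treated libraries. NR_027783 carried 14.9, 13.9 and 15.7% and then 8.62, 11.7 and 12.9%. None of the 3 shares overlapped between the groups: that of the intron-holding transcript was higher and both spliced shares were lower in co-treated cells. The 3 shares add up to the whole gene, so they are not separate observations. How often shares separate the groups among all transcripts was not counted. As shares of TPM, which allow for length, the intron-holding transcript stood at 51.2 ± 6.04% in the control and 65.3 ± 6.77% in the co-treated libraries (SD, n = 3).

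The test of transcript usage (diffSplice after voom) did not call SAT1: its gene-level p was 0.00438 and its adjusted p 0.118 over 9961 genes, of which 1.9% were called. Under 10 other settings that adjusted p lay above 0.05 each time. Of the 9 genes that could be tested for usage, none was called, nor was any of their transcripts (0.617% of 58861 transcripts were), and PAOX was not tested. By level, XM_024452421 had 60.9, 60.4 and 54.7 CPM in the control and 106, 88.6 and 88.0 CPM in the co-treated libraries, a log2 fold change of 0.68 ± 0.10 (edgeR adjusted p = 0.151; DESeq2 adjusted p = 3.99e-06). NR_027783 had a log2 fold change of 0.04 ± 0.19 and NM_002970 one of -0.40 ± 0.31, both with overlapping groups, and the NM_002970 value was -0.18 without control 3 and -0.21 without co-treated 1. The edgeR test of transcripts had little power here: it called 1 of 65252 transcripts (0.00153%), against 5586 at an unadjusted p under 0.05, and DESeq2 called 1527 higher and 1799 lower. Counts were apportioned between transcripts by an estimate, and reads from unspliced precursor RNA would be assigned to XM_024452421 as well, a part that was not tested.

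**Figure D4:**
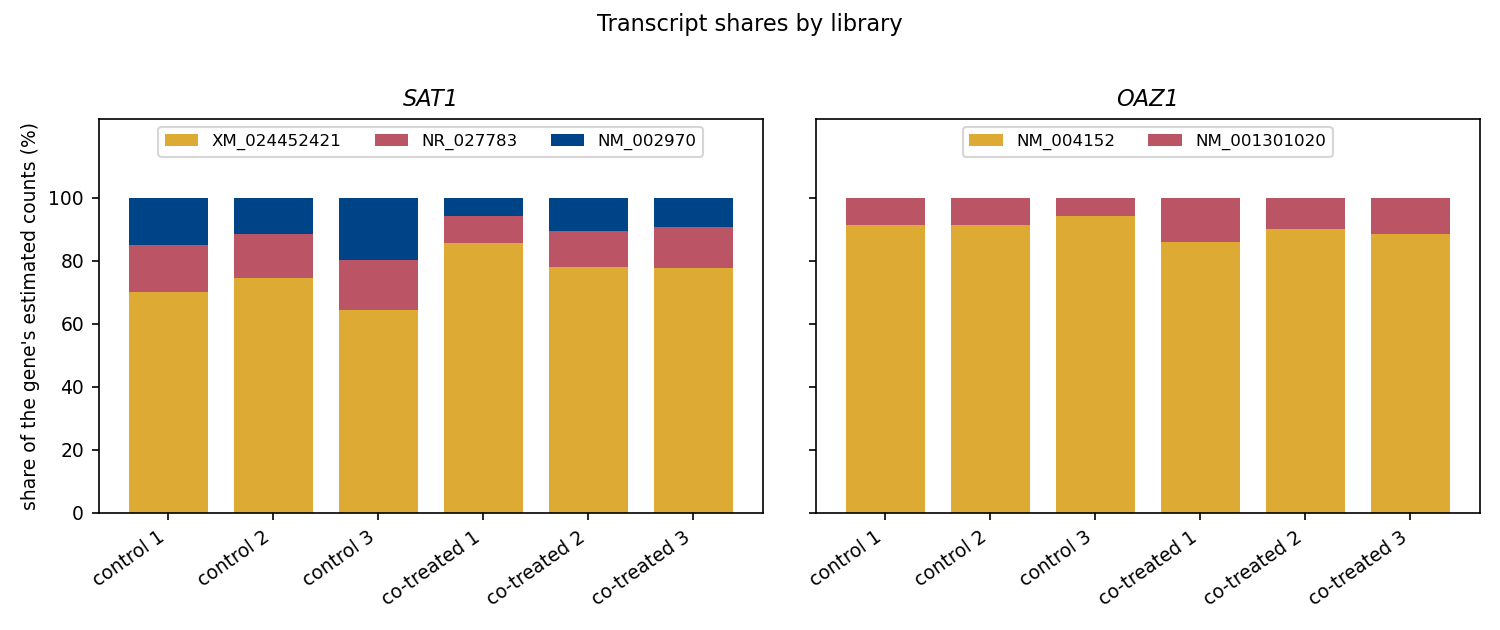
Share of the estimated counts of SAT1 (left) and OAZ1 (right) carried by each listed transcript (stacked bars, percent) in each library. The XM_024452421 part of SAT1 is at 64.4 to 74.4% in the controls and 77.6 to 85.6% in the co-treated libraries.

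OAZ1 has 2 listed transcripts that differ by 6 bases in length. The shorter, NM_001301020, carried 8.84, 8.71 and 5.97% of the gene's estimated counts in the control and 14.1, 9.96 and 11.6% in the co-treated libraries. The shares did not overlap, a separation whose frequency among all transcripts was not counted. The usage adjusted p (diffSplice) was 0.326 for the gene. The transcript's log2 fold change of 0.63 ± 0.16 had an edgeR adjusted p of 0.328 (DESeq2 adjusted p = 0.0247). SRM and SMS each rested on 1 transcript. NM_003132 held 99.4% of SRM counts in the control and had a log2 fold change of -0.56 ± 0.07 (edgeR adjusted p = 0.142; DESeq2 adjusted p = 6.18e-08). NM_004595 held 93.3% of SMS counts and had a log2 fold change of -0.41 ± 0.05 (edgeR adjusted p = 0.139; DESeq2 adjusted p = 1.35e-08). For AZIN1, with 11 listed transcripts, the estimated shares swung within a group: NM_148174 carried 51.9, 7.10 and 32.8% in the control and 64.9, 62.3 and 25.0% in the co-treated libraries, so no transcript of it is described further.

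The remaining genes named from the transcript table had 1 leading transcript. ODC1 counts came to 97.3% in the control and 96.3% in the co-treated libraries from NM_002539, and AMD1 counts to 94.3 and 93.0% from NM_001634. NM_002537 held 89.1 and 87.8% of OAZ2 counts, and NM_175839 held 66.7 and 68.5% of SMOX counts. The share groups overlapped for each of these 4. The processed pseudogenes SRMP1, OAZ1P1 and AMD1P4, which resemble 3 of the genes, held 0 or 1 counts in every library.

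Genes around the pathway were counted in 6 lists of 48 genes, of which 38 were tested, 7 called higher and 16 lower, where 16.6% of all tested genes were called higher and 17.1% lower. On log2(TPM + 1) the same lists had 8 genes higher and 8 lower. The lists for hypusination, for ornithine and arginine supply and for regulators lay lower in their medians. The 23 called genes kept their direction under all 10 other settings run for the lists, and 11 of them were called under each. Those 11 were GPC1, EIF5A2, DOHH, EIF5A, OAT, ARG2, ALDH18A1, SLC7A1, SLC25A15, APIP and MYC. Besides the losses named with each gene below, the calls of MAT2A, NFE2L2, SLC3A2 and SLC22A3 were not made with library size alone or on log2(TPM + 1), nor those of ATP13A2, SLC47A1 and PMF1 after removal of a length trend. On log2(TPM + 1) the falls of SLC7A1 (-0.15), APIP (-0.14), SLC25A15 (-0.18), ALDH18A1 (-0.23) and DOHH (-0.24) were smaller by more than 1.5 times than those given below, and the rises of ADI1 (0.29) and ATP13A2 (0.28) larger. The median of all tested genes also lay higher on that scale, at 0.09. After removal of a length trend, the falls of DHPS (-0.16), APIP (-0.17), EIF5A (-0.33) and PMF1 (-0.11) were among those that became smaller. Those of SLC7A1 (-0.39), SLC25A15 (-0.35), ALDH18A1 (-0.39), SLC22A3 (-0.45) and MYC (-0.57) became larger.

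Hypusination turns a spermidine-derived group into the amino acid hypusine of the translation factor eIF5A. Its 4 genes were all called, 1 higher and 3 lower, against 16.6% and 17.1% of all tested genes, with a median log2 fold change of -0.31 (-0.18 on log2(TPM + 1)). EIF5A, the substrate, was at 826, 923 and 925 CPM in the control and at 596, 702 and 711 CPM in the co-treated libraries, without overlap. EIF5A fell by 0.41 ± 0.07 on the log2 scale (edgeR adjusted p = 0.00118). DHPS and DOHH, the 2 enzymes, fell by 0.25 ± 0.06 and 0.37 ± 0.09 on the log2 scale (edgeR adjusted p = 0.00758 for each), the first not called on the TPM scale. The paralogue EIF5A2 rose, from 16.4, 19.7 and 18.0 CPM in the control to 20.6, 23.8 and 24.2 CPM in the co-treated libraries, by 0.34 ± 0.08 on the log2 scale (edgeR adjusted p = 0.00989).

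Ornithine and arginine supply had 8 tested genes, 1 called higher and 5 lower (16.6% and 17.1% of all tested genes), with a median of -0.30 that was -0.17 on log2(TPM + 1). ARG2, the mitochondrial arginase that yields ornithine, was at 24.5, 22.9 and 24.2 CPM in the control and at 18.9, 17.2 and 16.6 CPM in the co-treated libraries. ARG2 fell by 0.44 ± 0.07 on the log2 scale (edgeR adjusted p = 0.000636). ALDH18A1, which makes the shared precursor of ornithine and proline from glutamate, fell by 0.38 ± 0.04 (adjusted p = 0.000112), and the mitochondrial ornithine carrier SLC25A15 fell by 0.32 ± 0.05 on the same scale (adjusted p = 0.000726). The arginine and ornithine importer SLC7A1 fell by 0.28 ± 0.04 (edgeR adjusted p = 0.000619), and PYCR1, of proline synthesis, fell by 0.34 ± 0.08 (adjusted p = 0.00914), a call not made on the TPM scale. OAT, the ornithine aminotransferase, was the gene that rose, from 162, 163 and 162 CPM to 195, 185 and 191 CPM (log2 fold change 0.23 ± 0.04, edgeR adjusted p = 0.00168). In log2(TPM + 1) the OAT difference was larger, at 0.82. The control libraries were uneven on that scale, at 166, 104 and 98.9 TPM, though alike in CPM, and the cause was not tested.

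AdoMet supply and the salvage of methylthioadenosine, the by-product of SRM and SMS, had 6 tested genes, 1 called higher and 3 lower (16.6% and 17.1% of all tested genes), with a median of -0.13. On log2(TPM + 1) 1 was lower and the median was -0.00599. MTAP, the first salvage enzyme, had 0 counts in all 6 libraries. The later salvage enzymes APIP and ENOPH1 fell by 0.27 ± 0.05 and 0.24 ± 0.05 on the log2 scale (edgeR adjusted p = 0.00152 and 0.00341; ENOPH1 not called on the TPM scale). ADI1, also of salvage, rose by 0.15 ± 0.05 (edgeR adjusted p = 0.0298). MAT2A, the AdoMet synthetase, fell by 0.14 ± 0.04 (edgeR adjusted p = 0.029). Both of the last calls were lost when some single libraries were left out: each without control 1, co-treated 2 or co-treated 3. That of ADI1 was also lost without control 2 and that of MAT2A without control 3. In those fits the log2 fold change stayed between 0.12 and 0.15 for ADI1 and between -0.14 and -0.12 for MAT2A. The MAT2A difference was -0.00433 on the log2(TPM + 1) scale.

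Transport and paralogues had 12 tested genes, 4 called higher and 2 lower (16.6% and 17.1% of all tested genes), with a median of -0.03. On log2(TPM + 1) 5 were higher and 0 lower, with a median of 0.12, and with library size alone 4 and 0, with a median of 0.03. GPC1, a heparan sulfate proteoglycan known to bind polyamines at uptake, was at 27.5, 27.9 and 33.1 CPM in the control and at 37.5, 42.8 and 42.8 CPM in the co-treated libraries. GPC1 rose by 0.47 ± 0.08 on the log2 scale (edgeR adjusted p = 0.00124). AZIN2, the second antizyme inhibitor, rose by 0.40 ± 0.10 (adjusted p = 0.0138), a call lost without control 3. The lysosomal polyamine exporter ATP13A2 rose by 0.17 ± 0.05 (edgeR adjusted p = 0.0267; lost without control 1 or 2 or co-treated 2 or 3). SLC47A1, an organic cation exporter, rose by 0.20 ± 0.07 (edgeR adjusted p = 0.0498; lost without any single library except control 2). SLC3A2, an amino acid transporter subunit linked to polyamine export, fell by 0.24 ± 0.07 (edgeR adjusted p = 0.0234; lost without control 2 or 3 or co-treated 2), and SLC22A3, an organic cation transporter, fell by 0.41 ± 0.14 (adjusted p = 0.0376; lost without control 1 or 3 or co-treated 2 or 3).

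Terminal amine oxidation had 4 tested genes and none was called. Of the 4 regulators, 3 were called lower, against 17.1% of all tested genes, with a median of -0.21. On log2(TPM + 1) 1 was lower and the median was -0.08. MYC, known to bind E-boxes of ODC1 and SRM, was at 173, 180 and 187 CPM in the control and at 119, 127 and 128 CPM in the co-treated libraries, without overlap. MYC fell by 0.53 ± 0.05 on the log2 scale (edgeR adjusted p = 3.22e-05). Of the genes with a CACGTG match shown above, SRM fell by 0.56 on this scale. ODC1, matched at a start with few of its counts, was not called. SMS, which fell, had no match in its window. Whether MYC had a part in any of these differences was not tested. MAX, the partner of MYC, had a log2 fold change of -0.04 ± 0.05 (edgeR adjusted p = 0.587). NFE2L2 and PMF1, which are linked to SAT1 transcription, fell by 0.20 ± 0.06 and 0.23 ± 0.05 on the log2 scale (edgeR adjusted p = 0.0153 and 0.00526). The NFE2L2 call was lost without control 1, co-treated 2 or co-treated 3, and neither was called on the TPM scale.

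**Figure D5:**
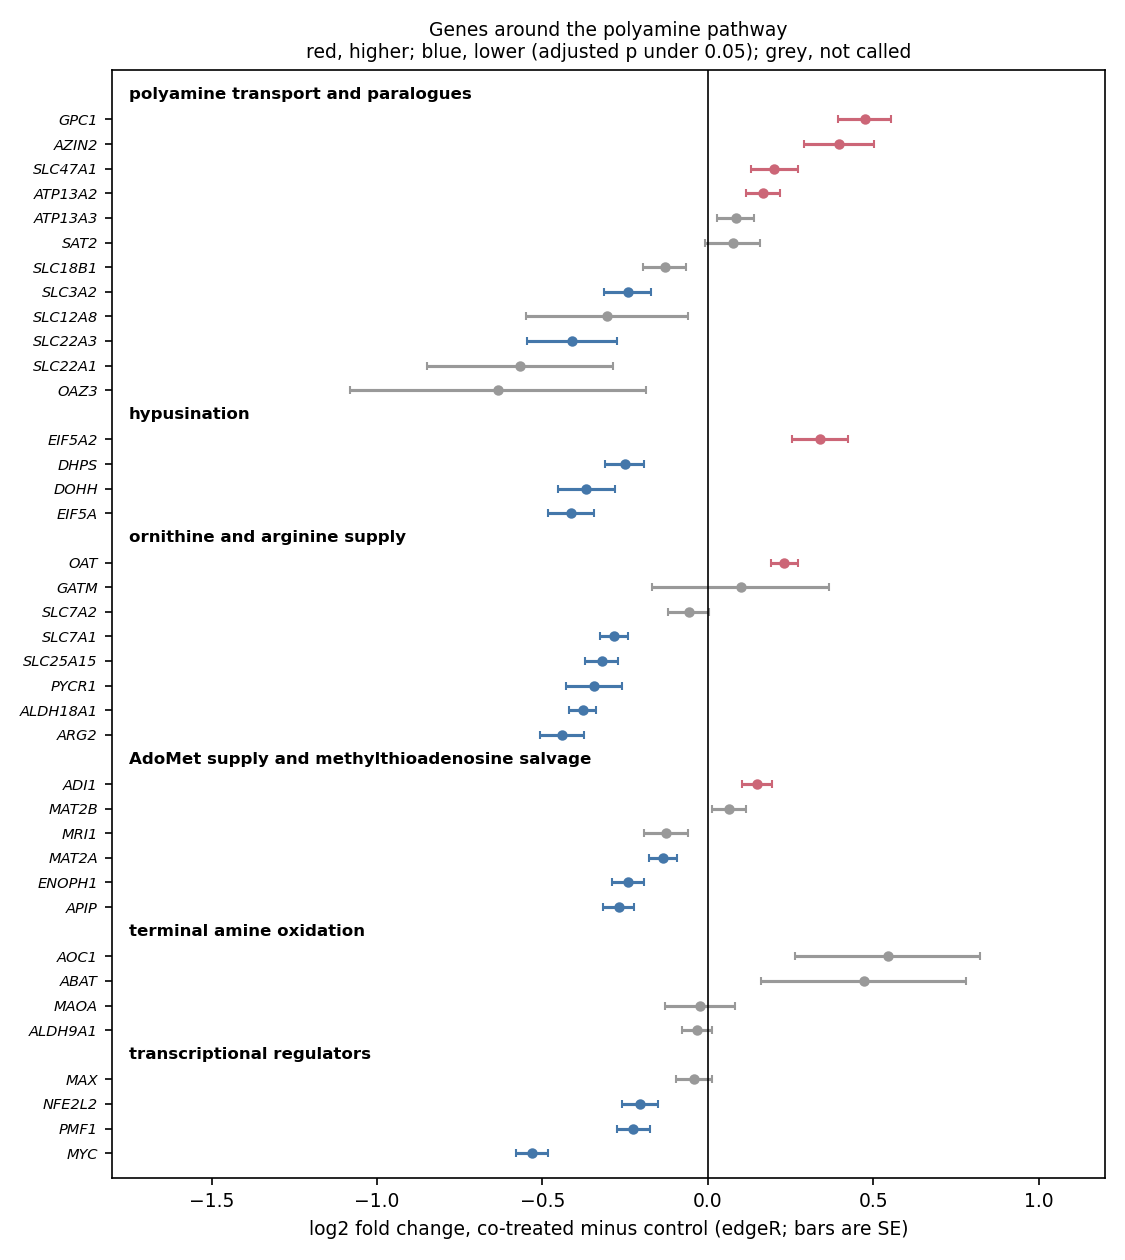
Log2 fold change (co-treated minus control, horizontal axis) with its SE for the 38 tested genes of 6 lists around the pathway, coloured by call. Points for MYC, EIF5A and ARG2 lie to the left of 0 and those for GPC1 and EIF5A2 to the right.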

How the data were processed

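Total RNA of 6 MDA-MB-231/RR samples was sequenced (3 control, 3 co-treated; groups and replicate numbers from the sample titles). Columns headed Con were taken as control and those headed Mo as melatonin with oTR; the labels do not spell this out. Trimmomatic 0.38, HISAT2 2.1.0, Bowtie2, SAMtools 1.9, StringTie 2.1.3b and the build GRCh38 are named, without roles, per the submitters' processing notes. No source used here gives the library kit, RNA selection or strandedness.

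The authors deposited whole-number estimated counts, FPKM and TPM per gene and per transcript. These counts are not counted reads: all 326895 low transcript values checked equalled the deposited FPKM times length, rounded up (tolerance 0.1 counts), and each of 46427 genes held the sum of its transcripts. Deposited TPM served for levels and ratios, and deposited FPKM only for that check.

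Genes passing filterByExpr (minimum count 10; 16557) were tested with the edgeR 4.0.16 quasi-likelihood test in R 4.3.3, with relative log expression factors, which the labels name. CPM values use the same factors. Transcripts (65252) were tested alike, and usage with voom and diffSplice (limma 3.58.1). Ratios were tested by exact permutation. The threshold was an adjusted p of 0.05. As alternatives, DESeq2 1.42.0, voom, TMM factors, no factors (library size alone), 2 other count filters, a replicate block, limma on log2(TPM + 1) and log2(TPM + 0.1), removal of a length trend (lowess), diffSpliceDGE, and each library left out were run. The 10 genes, the related lists and the tests were chosen with earlier results of these data known. The text names all 10 genes, their transcripts with at least 5% of the gene's counts in any library (AZIN1 and minor ones in part), and every called gene of the related lists. One marker gene is not reported here.

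On simulated counts of 16285 genes, the gene test recovered 32 of 50 genes changed 1.25-fold and all 50 changed 1.5-fold. Of 208 calls, 26 were false, a larger share than the threshold of 0.05, so calls close to the threshold are the less certain. The simulation changed 200 genes, a far smaller share than the 33.7% called in the data. Its rates of recovery and of false calls therefore need not hold for the data. The transcript test, on 60449 simulated transcripts, recovered 0 of 50 changed 1.5-fold and 24 of 50 changed 16-fold. The usage test recovered 33 of 100 swapped genes among 9622, with 5 false calls. Plots were made in matplotlib 3.10.9.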

Additional observations from a re-analysis of the deposited data

How the results depend on the processing

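SRM, SMS and SAT1 kept their calls under all 17 alternatives, AZIN1 under 14 and SMOX under 9. ODC1 and AMD1, not called in any, turned positive on the TPM scale (0.0460 and 0.0369 on log2(TPM + 1), whether filtered or not, and 0.0461 and 0.0372 on log2(TPM + 0.1)), and the cause was not tested. With 1 library left out, the log2 fold change of OAZ1 ranged from -0.0214 to 0.0926, of OAZ2 from -0.00690 to 0.0599, of NR_027783 from -0.0646 to 0.160 and of NM_004152 from -0.0858 to 0.0601. Over all genes, 2743 were called higher and 2835 lower, against 4516 and 1339 on log2(TPM + 1), 4490 and 1338 on log2(TPM + 0.1) and 3210 and 968 on log2(TPM + 1) without a filter. The median log2 fold change of all genes was 0.09, 0.12 and 0.03 on these scales. The related lists had 8 genes lower on log2(TPM + 1) in place of 16, and 4 to 6 higher with 1 library left out, in place of 7 (4 without control 1, co-treated 2 or co-treated 3). Between 1 and 3 of the 10 genes were called higher with 1 library left out (1 without control 1, control 3 or co-treated 3). Leaving out 1 library gave 0 to 1 transcripts called lower and 116 (without co-treated 3) to 217 genes with a usage call (189 with all). DESeq2 called 1527 transcripts higher and 1799 lower. With the replicate block, 0 transcripts were lower and 105 genes had a usage call, while 3177 genes were called higher and 3190 lower. Same-numbered libraries deviated together with correlations of 0.181, -0.0124 and 0.0737, and differently numbered ones with -0.146 to 0.0708. With 3 libraries per group, these values cannot tell whether same-numbered libraries were paired. At 6 to 18 estimated counts per library, depth limits what can be said of PAOX.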

Other observations

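ODC1-DT, a long non-coding RNA gene transcribed divergently from ODC1 (chr2:10449728-10455552), was looked at after its values were seen. It had 0.829, 0.800 and 0.616 normalized CPM in the control and 0.422, 0.368 and 0.558 CPM in the co-treated libraries, without overlap. Its log2 fold change was -0.71 ± 0.26 (SE; 95% interval -1.29 to -0.13), at an edgeR adjusted p of 0.058 that missed the threshold, on 19 to 57 estimated counts per library. ODC1 itself stood at -0.09 on the same scale.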
